A study of Homo sapiens with 12 samples.

Results

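Interferon-stimulated genes are the genes that cells switch on when interferon reaches them. A set of 42 of them was followed in triple negative breast cancer (TNBC) cells under a series of Paclitaxel doses. The set was taken by gene symbol from the 63568 gene identifiers of the count table and holds regulators of the response, ISG15 and the enzymes that attach and remove it, proteins that bind or degrade RNA, membrane proteins and further induced proteins. Of the 42 genes, 41 were among the 25249 genes with enough counts to be tested. CMPK2, a mitochondrial nucleotide kinase that lies head to head with RSAD2, had between 0 and 2 counts in each sample and was not tested.

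RNA was sequenced from MDA-MB-231, a human TNBC cell line of mesenchymal character, here carrying a GFP label in the nucleus and given as WT in the labels. All cells were grown in 3D in Matrigel, a basement membrane gel, and there were 2 biological replicates for each of 6 conditions. C1 was untreated and taken on day 2, C2 was untreated and taken on day 4, and the other conditions received 0.0005, 0.005, 0.05 or 0.5 μM Paclitaxel and were taken on day 4. The labels place the dosing on day 2, while the study's imaging experiment was dosed later. Paclitaxel is a taxane that binds microtubules and keeps them from shortening, which holds dividing cells in mitosis. The model is a single cell line without immune cells or stroma, and the cells were freed from the gel with collagenase and dispase before lysis. The comparisons ask how the genes responded to each dose and how the response changed over the dose range.

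The samples held between 38380629 and 79169121 counts in genes. Levels are given as CPM, counts scaled to a common library size with factors from the trimmed mean of M values (TMM), and changes as log2 fold changes with their standard error (SE). Adjusted p-values are from the quasi-likelihood F test of edgeR, with the adjustment of Benjamini and Hochberg over all genes tested, and calls were made at an adjusted p under 0.05. For a single gene, an exact permutation test of 2 against 2 samples cannot go below p = 0.333, so no such test was used. The sum of 6 genes typical of MDA-MB-231, VIM and CD44 among them, lay between 2345 and 4055 CPM in every sample. The sum of 6 luminal genes such as ESR1 and EPCAM lay between 34.2 and 61.3 CPM, and markers of fibroblasts and immune cells are given after the other results. In bulk RNA, a response of few cells and a weaker response of all cells cannot be told apart.

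Type I interferons and type III interferons, the interferon lambdas, bind receptors on the cell surface and activate the kinases JAK1 and TYK2. These phosphorylate STAT2, which joins IRF9 in a complex called ISGF3. The complex enters the nucleus and binds the interferon-stimulated response element (ISRE), a short sequence with repeated GAAA letters near the start of most interferon-stimulated genes. In breast cancer cells the same genes can also be switched on from within, by sensors of RNA or DNA in the cytosol.

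The promoters of 34 of the 42 genes were read from RefSeq on the GRCh38.p14 assembly, and the 250 bases before each annotated start were searched for the ISRE core, which is GAAA, any 2 bases and GAAA again, or TTTC, any 2 bases and TTTC on the other strand. The core was found before at least 1 start of 22 of the 34 genes (64.7%) and of 1014 of the 27305 genes of the whole table (3.71%). In 11 of the 22 genes it was found more than once, counting overlapping matches. Its first base lay between 12 and 196 bases from the nearest start, with a median of 71. A second motif, the core TTCNNNGAA of the gamma-activated site (GAS), which reads the same on either strand and was searched on its own so that the matches may share bases, was found in 10 of 34 genes (29.4%) and in 8.09% of all genes. The sequences of RSAD2, IFIT3, IFI27 and ISG15 are shown, for 1 start each, because among the genes with a core these had the largest called falls from 0.0005 to 0.5 μM, and STAT2 is shown as a gene without a core. Each reads 5′ to 3′ toward the start, with every match to the ISRE core in capitals. The windows are chr2:6877527-6877776 on the plus strand for RSAD2, chr10:89327747-89327996 on the plus strand for IFIT3, chr14:94110486-94110735 on the plus strand for IFI27, chr1:1013247-1013496 on the plus strand for ISG15 and chr12:56360108-56360357 on the minus strand for STAT2.
RSAD2: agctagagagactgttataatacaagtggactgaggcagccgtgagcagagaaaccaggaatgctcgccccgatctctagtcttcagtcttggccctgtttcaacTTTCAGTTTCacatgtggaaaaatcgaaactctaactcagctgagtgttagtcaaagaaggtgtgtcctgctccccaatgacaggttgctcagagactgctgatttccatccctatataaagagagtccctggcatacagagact
IFIT3: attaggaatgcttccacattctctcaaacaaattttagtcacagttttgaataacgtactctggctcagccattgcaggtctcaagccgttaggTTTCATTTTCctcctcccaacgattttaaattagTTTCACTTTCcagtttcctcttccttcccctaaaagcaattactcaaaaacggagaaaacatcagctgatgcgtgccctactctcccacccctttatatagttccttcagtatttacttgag
IFI27: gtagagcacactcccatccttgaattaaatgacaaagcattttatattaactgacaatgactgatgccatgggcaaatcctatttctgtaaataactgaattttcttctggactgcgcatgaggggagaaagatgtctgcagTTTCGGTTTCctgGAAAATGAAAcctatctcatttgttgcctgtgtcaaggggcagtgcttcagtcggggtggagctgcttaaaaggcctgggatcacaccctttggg
ISG15: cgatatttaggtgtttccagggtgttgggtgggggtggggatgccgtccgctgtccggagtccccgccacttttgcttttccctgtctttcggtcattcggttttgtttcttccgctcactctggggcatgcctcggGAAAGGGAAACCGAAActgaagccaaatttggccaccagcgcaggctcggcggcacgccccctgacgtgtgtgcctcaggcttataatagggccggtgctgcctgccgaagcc
STAT2: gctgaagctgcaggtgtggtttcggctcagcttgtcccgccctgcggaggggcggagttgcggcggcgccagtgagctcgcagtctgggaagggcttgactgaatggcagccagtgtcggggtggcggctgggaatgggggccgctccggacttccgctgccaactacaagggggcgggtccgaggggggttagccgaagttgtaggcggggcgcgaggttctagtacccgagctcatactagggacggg

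Most of the set had its highest levels at the lowest dose. At 0.0005 μM, 15 of the 41 genes rose against C2 and none fell, where 1.87% of all 25249 genes tested rose and 0.479% fell. The rises ran from 0.52 for IFITM3 to 2.86 for IFI27 on the log2 scale. Over all 41 genes the median log2 fold change was 0.61, against -0.01 for all genes tested, and 39 of 41 were above 0. The exceptions were STAT2 and TRIM22. At 0.005 μM, 8 genes rose and none fell (2.5% of all genes rose and 0.776% fell), with a median of 0.33. The log2 fold changes against C2 were 2.27 for XAF1 and 1.64 for IFI44L at 0.005 μM, beside 2.42 and 1.78 at 0.0005 μM, and 0.71 for OASL and 0.86 for IFIT2, beside 1.35 and 1.36.

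At the upper doses little of the rise was left. At 0.05 μM, IFI27 rose (5.09% of all genes rose) and no gene of the set fell (3.23% of all genes fell), with a median of -0.13. At 0.5 μM, IFI27 rose (4.36% of all genes rose) and OASL fell (1.96% of all genes fell), with a median of -0.07 that turned to 0.04 under upper quartile scaling. All 4 doses were compared with the same C2 samples. The fall from 0.0005 to 0.5 μM, which does not involve C2, was called for 12 genes, where 0.337% of all genes fell. None rose (0.0753% of all genes rose), 40 of 41 genes were below 0, and the median was -0.57 against 0.03 for all genes. The exception was IRF9.

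**Figure D1:**
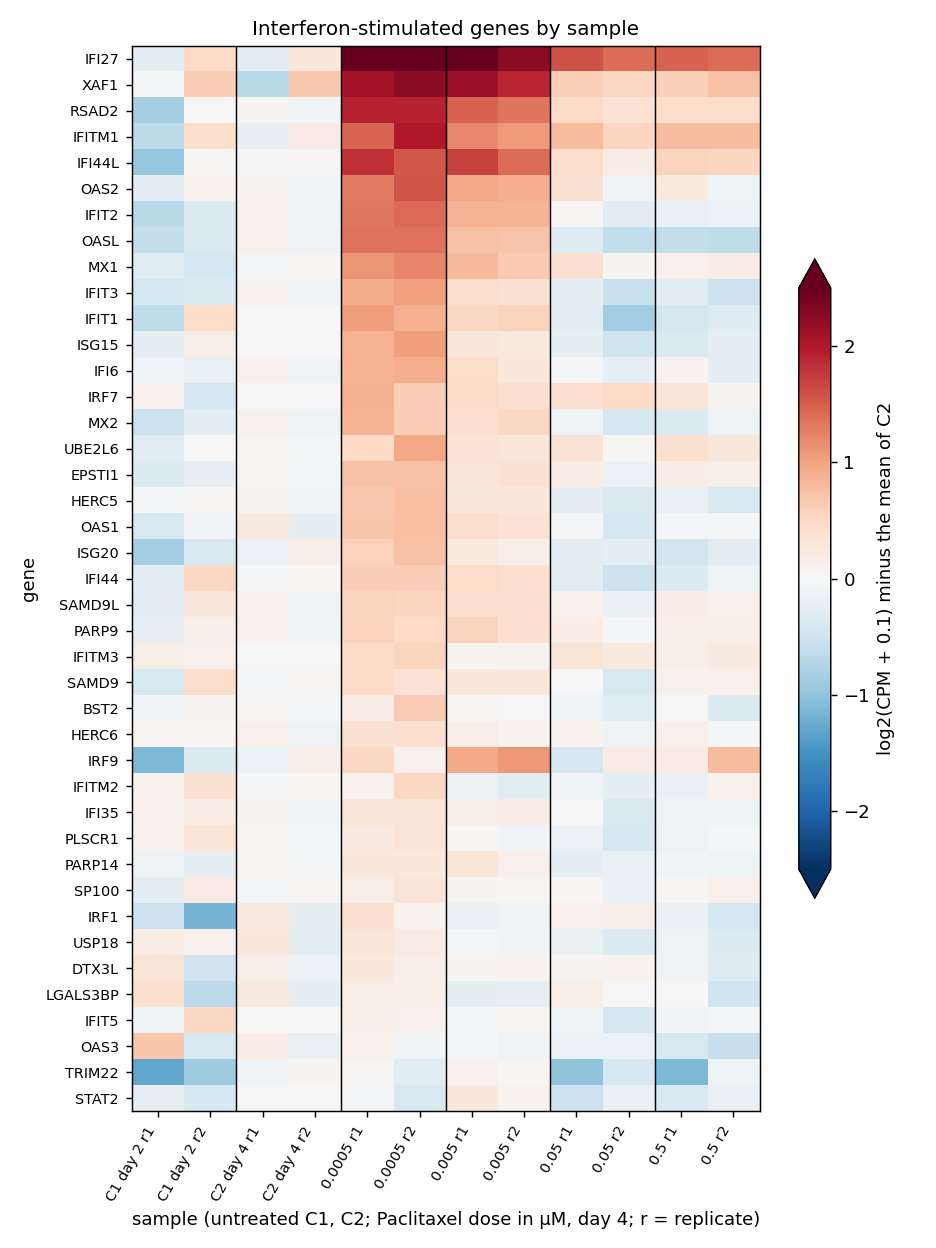
Interferon-stimulated genes in each of the 12 samples, as log2(CPM + 0.1) minus the mean of the C2 samples, ordered by the log2 fold change at 0.0005 μM, with red for higher and blue for lower levels. The columns of 0.0005 and 0.005 μM are red in the upper part, most of it gone at 0.05 and 0.5 μM, where IFI27 alone stayed called higher.

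These counts depended on the samples in the fit. Without C2 replicate 1 or 2, fewer genes of the set were called higher at 0.0005 μM, and fewer of all genes. The same held without replicate 1 or 2 of that dose. Without C1 replicate 1 or 2, more genes of the set and of all genes were called higher there. For the fall from 0.0005 to 0.5 μM, fewer genes of the set and of all genes were called lower without any 1 sample of these doses. More of both were called lower without C1 replicate 1 or 2. At 0.005 μM, fewer genes of the set and of all genes were called higher without any 1 sample of C2 or of that dose. More of both were called higher without C1 replicate 1 or 2. IFI27 was not called at 0.05 μM without C2 replicate 1, nor at 0.5 μM without C2 replicate 1 or either replicate of that dose. OASL at 0.5 μM was not called without any 1 of the samples of C2, 0.0005, 0.005 or 0.5 μM. Without C1 replicate 1 or 2, more genes of the set were called at 0.05 and at 0.5 μM against C2, in both directions. More of all genes were called in these fits too.

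Among the transcription factors, none of the 4 genes was called against C2 at any dose. STAT2, the subunit of ISGF3 that activates transcription, stood at 34.7 and 29.4 CPM in C1, 39.6 and 40.4 in C2, 39.2 and 30.3 at 0.0005 μM, 47.8 and 42.8 at 0.005 μM, 27.5 and 35.8 at 0.05 μM, and 30.5 and 35.5 at 0.5 μM. Its highest levels were at 0.005 μM, above both C2 samples, while the samples at 0.0005 and 0.5 μM overlapped. The log2 fold change of STAT2 was -0.20 ± 0.18 (SE, edgeR adjusted p = 0.59) at 0.0005 μM against C2 and -0.07 ± 0.18 (SE, edgeR adjusted p = 0.892) from 0.0005 to 0.5 μM.

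IRF9, the subunit that recognizes the DNA, was low, at 0.688 and 1.25 CPM in C1, 1.44 and 1.80 in C2, 2.37 and 1.73 at 0.0005 μM, 3.21 and 3.54 at 0.005 μM, 1.18 and 1.88 at 0.05 μM, and 1.86 and 2.85 at 0.5 μM. Both samples at 0.005 μM lay above every other sample. For IRF9, the log2 fold change at 0.005 μM against C2 was 1.06 ± 0.31 (SE, edgeR adjusted p = 0.0911). Other annotated genes share 27.2% of the exon bases of IRF9, so part of its counts may be theirs.

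IRF7, which drives later interferon production, was at 18.0 and 12.3 CPM in C1, 16.9 and 16.6 in C2, 31.2 and 25.5 at 0.0005 μM, 23.3 and 22.5 at 0.005 μM, 22.4 and 23.3 at 0.05 μM, and 20.6 and 17.5 at 0.5 μM. Both samples at 0.0005 μM lay above all others. IRF7 missed the threshold against C2, with 0.76 ± 0.18 (SE, edgeR adjusted p = 0.0507), and fell along dose by 0.17 ± 0.04 (SE, edgeR adjusted p = 0.0373) per 10-fold dose on the log2 scale. IRF1, an activator that binds the same element, was at 55.5 and 35.8 CPM in C1, 93.1 and 68.5 in C2, 106 and 85.2 at 0.0005 μM, 71.7 and 73.1 at 0.005 μM, 87.3 and 89.3 at 0.05 μM, and 71.2 and 59.2 at 0.5 μM. The 0.0005 μM samples of IRF1 overlapped with C2 and lay above those of 0.5 μM, and the log2 fold change was 0.24 ± 0.21 (SE, edgeR adjusted p = 0.598) against C2 and -0.55 ± 0.21 (SE, edgeR adjusted p = 0.265) from 0.0005 to 0.5 μM.

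Of the 5 genes of the ISG15 system, 2 rose at 0.0005 μM and the same number fell from there to 0.5 μM. ISG15, a ubiquitin-like protein that is attached to other proteins and also secreted, was at 43.0 and 56.6 CPM in C1, 51.1 and 51.1 in C2, 93.4 and 105 at 0.0005 μM, 62.6 and 60.8 at 0.005 μM, 43.6 and 36.1 at 0.05 μM, and 39.8 and 43.6 at 0.5 μM. Both samples at 0.0005 μM exceeded every other sample, and all samples at 0.05 and 0.5 μM lay under both C2 samples. ISG15 rose at the lowest dose by 0.96 ± 0.16 (SE, edgeR adjusted p = 0.00829) and changed by -1.25 ± 0.16 (SE, edgeR adjusted p = 0.00629) from there to the highest. HERC5, the main ligase that attaches ISG15, was at 22.0 and 23.3 CPM in C1, 23.9 and 21.5 in C2, 36.2 and 38.5 at 0.0005 μM, 27.4 and 27.1 at 0.005 μM, 19.2 and 17.6 at 0.05 μM, and 20.3 and 17.3 at 0.5 μM. Its order was alike, with 0.0005 μM above all other samples and the upper doses under C2. For HERC5, the log2 fold change was 0.72 ± 0.14 (SE, edgeR adjusted p = 0.0168) against C2 and -0.99 ± 0.14 (SE, edgeR adjusted p = 0.00883) from 0.0005 to 0.5 μM.

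The other genes of the system were not called at any dose or in the slope. UBE2L6, the conjugating enzyme for ISG15, came close at 0.0005 μM with a log2 fold change of 0.75 ± 0.18 (SE, edgeR adjusted p = 0.0507). HERC6, a relative of HERC5, had 0.40 ± 0.14 (SE, edgeR adjusted p = 0.179). USP18, which removes ISG15 and damps interferon receptor signalling, had 0.23 ± 0.18 (SE, edgeR adjusted p = 0.545).

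The proteins that bind or degrade RNA held 5 of the 12 genes that fell from 0.0005 to 0.5 μM. At 0.0005 μM, 4 of 9 rose (IFIT2, IFIT3, OAS2 and OASL), and those that fell were the same genes and ISG20. Over all 9 genes of the group the median log2 fold change for the fall was -1.35. OASL, an oligoadenylate synthetase-like protein without synthetase activity that acts with the RNA sensor RIG-I, lies at chr12:121455566-121477049 (GRCh37). It was at 25.1 and 29.8 CPM in C1, 41.3 and 35.0 in C2, 97.8 and 97.2 at 0.0005 μM, 63.0 and 62.2 at 0.005 μM, 30.3 and 24.8 at 0.05 μM, and 24.9 and 24.5 at 0.5 μM. The samples at 0.0005 μM came first and those at 0.005 μM second, with no overlap, and both samples at 0.5 μM lay under both C2 samples. The log2 fold change of OASL was 1.35 ± 0.15 (SE, edgeR adjusted p = 0.000514) at 0.0005 μM against C2, -0.63 ± 0.15 (SE, edgeR adjusted p = 0.0323) at 0.5 μM against C2 and -1.98 ± 0.15 (SE, edgeR adjusted p = 0.000307) from 0.0005 to 0.5 μM, the largest fall of the set. The call of OASL at 0.5 μM against C2 was lost under upper quartile scaling (-0.51) and under offsets for GC content and gene length (-0.49).

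IFIT2, which binds viral RNA and blocks its translation, was at 59.2 and 74.2 CPM in C1, 101 and 87.2 in C2, 234 and 249.7 at 0.0005 μM, 173 and 169 at 0.005 μM, 95.9 and 77.3 at 0.05 μM, and 82.4 and 85.3 at 0.5 μM. The order of IFIT2 was the same, with the samples of 0.0005 and 0.005 μM apart from each other and above all others, and it changed by 1.36 ± 0.16 (SE, edgeR adjusted p = 0.000722) at 0.0005 μM against C2 and -1.53 ± 0.16 (SE, edgeR adjusted p = 0.00202) from 0.0005 to 0.5 μM. IFIT3, its partner, was at 75.6 and 81.6 CPM in C1, 111 and 95.9 in C2, 195 and 210.3 at 0.0005 μM, 140.2 and 135 at 0.005 μM, 86.5 and 69.7 at 0.05 μM, and 85.1 and 71.6 at 0.5 μM. Here the upper doses lay under both C2 samples, and the log2 fold change was 0.97 ± 0.15 (SE, edgeR adjusted p = 0.00589) at 0.0005 μM and -1.37 ± 0.15 (SE, edgeR adjusted p = 0.00287) from 0.0005 to 0.5 μM. IFIT1, which binds RNA without a methylated cap, was at 49.4 and 104 CPM in C1, 77.0 and 75.5 in C2, 157 and 141 at 0.0005 μM, 109.5 and 113 at 0.005 μM, 62.5 and 41.7 at 0.05 μM, and 56.1 and 60.8 at 0.5 μM. The 0.0005 μM samples of IFIT1 lay above all others, but the C1 samples differed widely from each other. IFIT1 was called neither against C2 (0.96 ± 0.28 SE, edgeR adjusted p = 0.0988) nor from 0.0005 to 0.5 μM (-1.35 ± 0.28 SE, edgeR adjusted p = 0.0742), and fell in the slope by 0.50 ± 0.08 (SE, edgeR adjusted p = 0.00942) per 10-fold dose.

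OAS2, an oligoadenylate synthetase that activates RNase L, was at 6.22 and 7.73 CPM in C1, 7.61 and 6.95 in C2, 18.0 and 21.8 at 0.0005 μM, 14.3 and 13.7 at 0.005 μM, 9.56 and 6.77 at 0.05 μM, and 8.66 and 6.77 at 0.5 μM. Both samples at 0.0005 μM came first and those at 0.005 μM second, and the upper doses overlapped with C2. For OAS2, the log2 fold change was 1.45 ± 0.20 (SE, edgeR adjusted p = 0.0025) against C2 and -1.36 ± 0.20 (SE, edgeR adjusted p = 0.0131) from 0.0005 to 0.5 μM. OAS1, of the same enzyme family, was at 14.7 and 18.6 CPM in C1, 22.8 and 16.5 in C2, 31.5 and 32.8 at 0.0005 μM, 26.5 and 24.9 at 0.005 μM, 19.1 and 14.2 at 0.05 μM, and 19.1 and 18.8 at 0.5 μM. The 0.0005 μM samples were above all others, and OAS1 missed the threshold against C2 (0.71 ± 0.19 SE, edgeR adjusted p = 0.0775) and fell in the slope by 0.29 ± 0.06 (SE, edgeR adjusted p = 0.0133) per 10-fold dose.

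OAS3, the longest of these synthetases, was at 103 and 48.4 CPM in C1, 73.1 and 56.2 in C2, 68.9 and 61.4 at 0.0005 μM, 62.0 and 59.4 at 0.005 μM, 58.2 and 58.0 at 0.05 μM, and 48.5 and 43.0 at 0.5 μM. The C1 samples held both the highest level and one of the lowest, 0.0005 μM overlapped with C2, and among the day 4 samples the lowest were those at 0.5 μM. For OAS3, the log2 fold change was 0.01 ± 0.27 (SE, edgeR adjusted p = 0.989) at 0.0005 μM against C2, and its slope was -0.16 ± 0.04 (SE, edgeR adjusted p = 0.0418) per 10-fold dose. ISG20, an exonuclease that degrades single-stranded RNA, was at 10.4 and 14.1 CPM in C1, 16.9 and 20.9 in C2, 28.2 and 31.5 at 0.0005 μM, 22.3 and 21.1 at 0.005 μM, 15.4 and 15.9 at 0.05 μM, and 13.6 and 15.7 at 0.5 μM. Its samples at 0.0005 μM were the highest, and all samples at 0.05 and 0.5 μM were under both C2 samples. ISG20 missed the threshold against C2 (0.66 ± 0.17 SE, edgeR adjusted p = 0.0703) and fell from 0.0005 to 0.5 μM (-1.03 ± 0.17 SE, edgeR adjusted p = 0.0266). IFIT5 was not called and had 0.14 ± 0.18 (SE, edgeR adjusted p = 0.729) at 0.0005 μM.

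Among the membrane proteins, 2 of 5 rose at 0.0005 μM and none was called in the fall to 0.5 μM. IFITM1, which blocks viral entry at the cell surface, was low, at 0.379 and 0.925 CPM in C1, 0.557 and 0.773 in C2, 1.97 and 2.92 at 0.0005 μM, 1.64 and 1.49 at 0.005 μM, 1.21 and 1.0 at 0.05 μM, and 1.20 and 1.20 at 0.5 μM. Every treated sample lay above both C2 samples, and those at 0.0005 μM were the highest. The log2 fold change of IFITM1 was 1.88 ± 0.35 (SE, edgeR adjusted p = 0.0134) at 0.0005 μM, from 34 and 42 counts in C2 to 148 and 172 counts, and the slope was -0.36 ± 0.08 (SE, edgeR adjusted p = 0.0293) per 10-fold dose. IFITM3, which acts in endosomes, was abundant, at 134 and 131 CPM in C1, 119 and 122 in C2, 168 and 177 at 0.0005 μM, 126 and 127 at 0.005 μM, 149 and 142 at 0.05 μM, and 136 and 140.4 at 0.5 μM. The samples at 0.0005 μM were again the highest, while those at 0.005 μM lay under those at 0.05 and 0.5 μM. The rise of IFITM3 was the smallest called (0.52 ± 0.12 SE, edgeR adjusted p = 0.0455), and its slope was -0.08 ± 0.05 (SE, edgeR adjusted p = 0.39). IFITM1, IFITM2 and IFITM3 are close paralogs, and only uniquely aligned reads were counted, so their levels are uncertain. IFITM2, BST2 (tetherin, which holds virus particles at the membrane) and PLSCR1 (a phospholipid scramblase) had log2 fold changes of 0.32, 0.43 and 0.28 at 0.0005 μM and were not called.

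Of the restriction factors inside the cell, 2 of the 7 tested rose at 0.0005 μM and 3 fell from there to 0.5 μM. RSAD2 (viperin), a radical SAM enzyme that makes a chain-terminating nucleotide, lies at chr2:7005688-7038370 (GRCh37) and was at 0.520 and 1.01 CPM in C1, 1.06 and 0.957 in C2, 4.12 and 4.11 at 0.0005 μM, 2.98 and 2.69 at 0.005 μM, 1.46 and 1.33 at 0.05 μM, and 1.43 and 1.42 at 0.5 μM. All 8 treated samples were above all 4 untreated samples, in the order of dose for the lower 2 doses. For RSAD2, the log2 fold change was 2.02 ± 0.25 (SE, edgeR adjusted p = 0.000981) at 0.0005 μM and 1.49 ± 0.25 (SE, edgeR adjusted p = 0.00839) at 0.005 μM against C2, and -1.53 ± 0.24 (SE, edgeR adjusted p = 0.0178) from 0.0005 to 0.5 μM. The counts behind these levels were 65 and 52 in C2 and 310 and 242 at 0.0005 μM.

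MX1, a dynamin-like GTPase that traps viral particles, was at 3.24 and 2.95 CPM in C1, 3.90 and 4.19 in C2, 8.85 and 9.57 at 0.0005 μM, 7.15 and 6.45 at 0.005 μM, 5.38 and 4.27 at 0.05 μM, and 4.43 and 4.60 at 0.5 μM. All treated samples lay above both C2 samples, at 0.05 and 0.5 μM by little, and the log2 fold change was 1.19 ± 0.17 (SE, edgeR adjusted p = 0.00251) at 0.0005 μM and -1.03 ± 0.17 (SE, edgeR adjusted p = 0.0192) from 0.0005 to 0.5 μM. MX2, its relative at the nuclear envelope, was at 3.57 and 4.27 CPM in C1, 5.57 and 4.84 in C2, 9.58 and 7.97 at 0.0005 μM, 7.01 and 7.48 at 0.005 μM, 4.73 and 3.86 at 0.05 μM, and 4.04 and 4.73 at 0.5 μM. The 0.0005 μM samples were the highest and the upper doses were under C2, with 0.76 ± 0.18 (SE, edgeR adjusted p = 0.0508) against C2, which missed the threshold, and -1.0 ± 0.18 (SE, edgeR adjusted p = 0.0393) from 0.0005 to 0.5 μM. The remaining genes of the group were not called. SAMD9 and SAMD9L, which restrict poxviruses, had log2 fold changes of 0.44 and 0.55 at 0.0005 μM, and SP100, a nuclear body protein, had 0.24. TRIM22, a ubiquitin ligase at 16 to 90 counts per sample, had -0.12.

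PARP9 and PARP14, which are ADP-ribosyltransferases, and DTX3L, a ubiquitin ligase, were not called. Their log2 fold changes at 0.0005 μM ran from 0.21 for DTX3L to 0.53 for PARP9, and from 0.0005 to 0.5 μM from -0.43 to -0.35.

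Of the 8 remaining induced proteins, 5 rose at 0.0005 μM. IFI27, a mitochondrial and nuclear membrane protein at chr14:94571182-94583032 (GRCh37), was at 0.534 and 0.955 CPM in C1, 0.524 and 0.791 in C2, 4.69 and 4.81 at 0.0005 μM, 4.09 and 3.48 at 0.005 μM, 2.15 and 1.85 at 0.05 μM, and 1.97 and 1.88 at 0.5 μM. All treated samples exceeded all untreated samples, and the 0.0005 μM samples were the highest. It was the gene of the set called higher at all 4 doses, with 2.86 ± 0.27 (SE, edgeR adjusted p = 0.000179), 2.53 ± 0.27 (SE, edgeR adjusted p = 0.000541), 1.61 ± 0.27 (SE, edgeR adjusted p = 0.00539) and 1.55 ± 0.28 (SE, edgeR adjusted p = 0.00845) from the lowest dose to the highest, and it fell by 1.30 ± 0.24 (SE, edgeR adjusted p = 0.0428) from 0.0005 to 0.5 μM. The counts of IFI27 were 32 and 43 in C2 and 353 and 283 at 0.0005 μM.

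XAF1, which counters the caspase inhibitor XIAP, was at 0.211 and 0.388 CPM in C1, 0.0982 and 0.405 in C2, 1.24 and 1.41 at 0.0005 μM, 1.30 and 1.09 at 0.005 μM, 0.379 and 0.352 at 0.05 μM, and 0.375 and 0.423 at 0.5 μM. The samples of 0.0005 and 0.005 μM overlapped with each other and stood above all others, and those at the upper doses lay within the range of C2 or just above it. For XAF1, the log2 fold change was 2.42 ± 0.45 (SE, edgeR adjusted p = 0.0137) at 0.0005 μM and 2.27 ± 0.44 (SE, edgeR adjusted p = 0.0184) at 0.005 μM, and its fall from 0.0005 to 0.5 μM missed the threshold (-1.73 ± 0.41 SE, edgeR adjusted p = 0.111). It rests on few counts, 6 and 22 in C2 and 93 and 83 at 0.0005 μM, and 38.3% of its exon bases are shared with an antisense gene. IFI44L, of unsettled function, was at 0.590 and 1.25 CPM in C1, 1.21 and 1.25 in C2, 4.63 and 3.81 at 0.0005 μM, 4.27 and 3.40 at 0.005 μM, 1.71 and 1.41 at 0.05 μM, and 1.89 and 1.84 at 0.5 μM. It had the same form, with overlapping levels at the lower doses, all treated samples above C2, and a log2 fold change of 1.78 ± 0.28 (SE, edgeR adjusted p = 0.00553) at 0.0005 μM and -1.18 ± 0.27 (SE, edgeR adjusted p = 0.096) from 0.0005 to 0.5 μM.

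IFI6, which protects the endoplasmic reticulum against flavivirus replication, was at 15.8 and 14.9 CPM in C1, 18.3 and 15.9 in C2, 31.2 and 32.2 at 0.0005 μM, 23.3 and 20.5 at 0.005 μM, 16.4 and 14.8 at 0.05 μM, and 18.0 and 14.4 at 0.5 μM. The 0.0005 μM samples were the highest and the upper doses overlapped with C2, with 0.89 ± 0.15 (SE, edgeR adjusted p = 0.00979) against C2 and -0.97 ± 0.15 (SE, edgeR adjusted p = 0.0187) from 0.0005 to 0.5 μM. EPSTI1, first described in breast cancer cells beside stroma, was at 2.68 and 2.95 CPM in C1, 3.52 and 3.33 in C2, 5.76 and 5.73 at 0.0005 μM, 4.39 and 4.49 at 0.005 μM, 3.90 and 3.07 at 0.05 μM, and 3.89 and 3.79 at 0.5 μM. It rose at the lowest dose (0.75 ± 0.17 SE, edgeR adjusted p = 0.0391), and its slope of -0.21 ± 0.06 (SE, edgeR adjusted p = 0.0578) missed the threshold. IFI44 was at 26.4 and 45.8 CPM in C1, 30.8 and 33.1 in C2, 48.9 and 48.8 at 0.0005 μM, 44 and 42 at 0.005 μM, 26.1 and 22.4 at 0.05 μM, and 25.0 and 29.2 at 0.5 μM. The samples at 0.0005 μM lay above all others, the upper doses were under both C2 samples, and IFI44 was called in the slope (-0.33 ± 0.06 SE, edgeR adjusted p = 0.0071) and not against C2 (0.61 ± 0.21 SE, edgeR adjusted p = 0.162). IFI35 and LGALS3BP, a secreted glycoprotein, were not called and had 0.31 and 0.15 at 0.0005 μM.

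**Figure D2:**
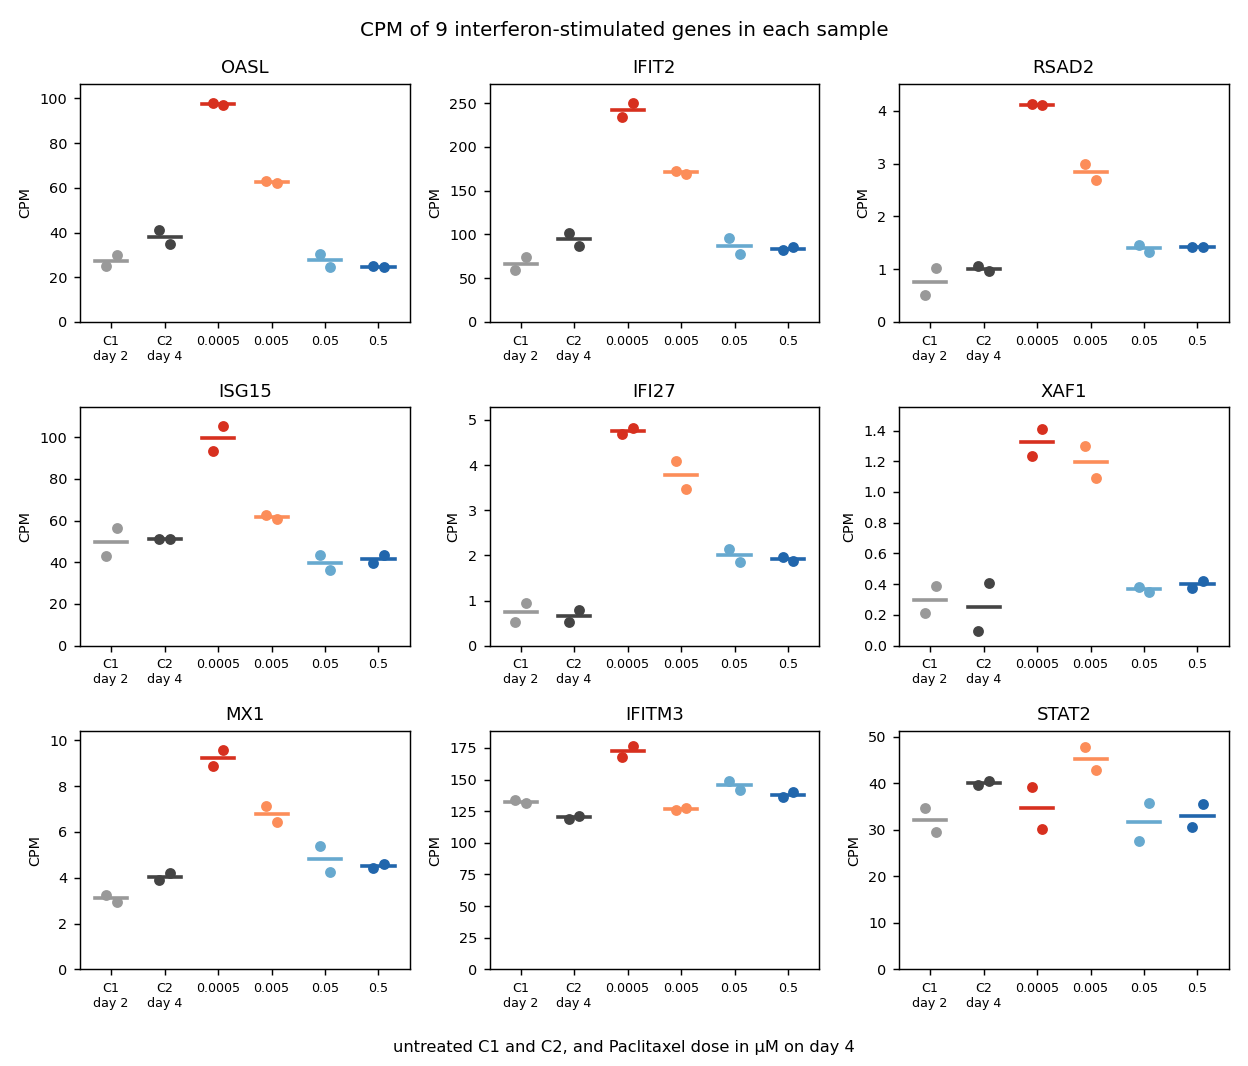
CPM of 9 of the genes in each sample (points) with the mean of the 2 replicates (lines), for untreated C1 and C2 and the Paclitaxel doses on day 4. OASL, IFIT2, ISG15 and MX1 are highest at 0.0005 μM, lower at 0.005 μM and lower again at 0.05 and 0.5 μM, XAF1 keeps its level up to 0.005 μM, IFI27 stays above C2 at every dose, and STAT2 has its highest samples at 0.005 μM.

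The peak lay at the lowest dose for nearly the whole set. Of the 41 genes, 38 had their highest mean CPM of the 4 doses at 0.0005 μM, where 30.4% of all genes tested peaked, and TRIM22, STAT2 and IRF9 peaked at 0.005 μM. The same 38 were also highest there when C2 was included, against 19.5% of all genes. Both samples at 0.0005 μM lay above both C2 samples for 34 of 41 genes (27.1% of all genes) and above both samples at 0.5 μM for 37 of 41 (25.9% of all genes). Both samples at 0.005 μM lay above both C2 samples for 29 genes (32.9% of all genes). At the upper doses this held for 7 genes at 0.05 μM and 13 at 0.5 μM, where the shares of all genes were 26.1% and 31.7%.

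Among the 15 genes that rose at 0.0005 μM, the share of the rise in mean CPM that was left at 0.005 μM had a median of 50.4%, from 11.8% for IFITM3 to 87.9% for XAF1. At 0.05 μM the median was 7.0%, from -29.6% for HERC5 to 48.3% for IFITM3, and at 0.5 μM 9.0%, from -26.6% to 34.1%. A negative share is a level under C2. These shares are a description of the means, without a test, and the genes were chosen by the rise itself.

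No single step of dose was called. From 0.0005 to 0.005 μM the median log2 fold change was -0.32, and 38 of 41 genes were below 0. From 0.005 to 0.05 μM it was -0.47 with 36 below 0, and from 0.05 to 0.5 μM it was 0.06 with 12 below 0. In edgeR's quasi-likelihood test none of the 41 genes was called in any step, and neither was any of the 25249 genes (0%). At an unadjusted p under 0.05, 15 genes were lower and 1 higher in the first step, where 1.97% of all genes were lower and 8.38% higher. By the same measure 24 were lower and none higher in the middle step (4.11% and 2.1% of all genes), and none was lower or higher in the last (1.36% and 1.21%). DESeq2, which tested all 42 genes, called 0, 4 and 0 of them, and 0.0613% of all genes in the middle step. Without C1 replicate 1 or 2, edgeR called 1 gene in the first step (0.0373% or 0.0336% of all genes), 13 or 12 in the middle step, all lower (0.101% or 0.097% of all genes were lower), and none in the last. The largest middle steps were those of XAF1 (-1.70 ± 0.41, SE), IFI44L (-1.30 ± 0.27) and OASL (-1.18 ± 0.15). Both samples at 0.005 μM lay above both at 0.05 μM for 33 of 41 genes, against 25.8% of all genes.

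A slope on log10 dose over the 8 treated samples took the whole range together. By this slope 20 of 41 genes fell, where 2.11% of the 25057 genes in that fit fell, and none rose (1.04% of all genes rose). All 41 slopes were below 0, with a median of -0.20 per 10-fold dose against 0.01 for all genes. The steepest called slopes were those of OASL (-0.71 ± 0.06 SE, edgeR adjusted p = 1.24e-05), XAF1 (-0.69 ± 0.12 SE, edgeR adjusted p = 0.00705), RSAD2 (-0.57 ± 0.07 SE, edgeR adjusted p = 0.000683) and IFIT2 (-0.55 ± 0.06 SE, edgeR adjusted p = 0.000116), and the shallowest that of OAS3. Without 0.0005 μM replicate 1, fewer genes of the set and fewer of all genes were called lower.

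**Figure D3:**
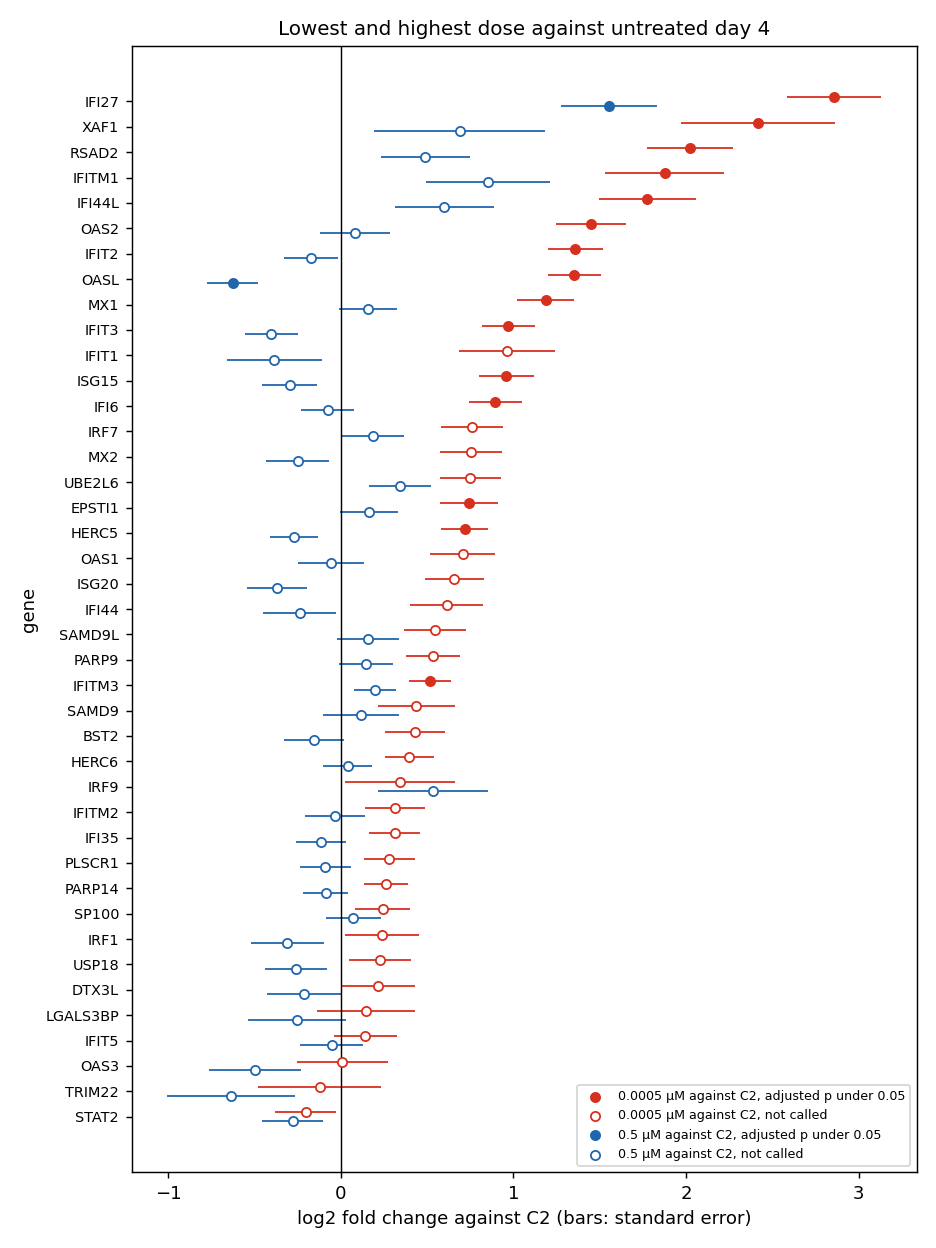
Log2 fold change against C2 with its standard error for the 41 genes tested, at 0.0005 μM (red) and 0.5 μM (blue), with filled points for an adjusted p under 0.05. At 0.0005 μM 39 of 41 points lie above 0 and 15 are filled, and at 0.5 μM the points scatter about 0 with IFI27 filled above and OASL filled below.

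Culture time without drug was compared in the untreated samples. From C1 on day 2 to C2 on day 4, none of the 41 genes was called by edgeR's quasi-likelihood test, where 0.325% of all genes were. At an unadjusted p under 0.05, 9 genes were higher and none lower, where 5.29% of all genes were higher and 4.71% lower, and DESeq2 called none. The median log2 fold change was 0.05. The largest differences were those of TRIM22 (1.30 ± 0.40, SE), IRF1 (0.82 ± 0.21) and IRF9 (0.81 ± 0.35), 3 genes that were not called under the drug. Without C1 replicate 1, 4 genes were called (2 higher, 2 lower), where 4.32% of all genes were higher and 5.69% lower. Without C1 replicate 2, 8 were called (7 higher, 1 lower), where 2.02% of all genes were higher and 5.01% lower.

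The genes differed widely in level. Per kilobase of exon and over all samples, LGALS3BP (73.8 CPM per kb), ISG15 (66.0) and IFITM3 (49.0) were the most abundant, and XAF1 (0.10) and TRIM22 (0.06) the least. The change was also set beside the untreated level. Spearman's rho between the mean CPM in C1, which does not enter the rise, and the log2 fold change at 0.0005 μM was -0.42 across the 41 genes, which share libraries and depth and are not independent.

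Genes with and without an ISRE core were set side by side. At 0.0005 μM, where 1.87% of all genes tested rose, 11 of the 22 genes with a core rose. Their median log2 fold change was 0.69, in a range from 0.01 for OAS3 to 2.86 for IFI27. Of the 11 tested genes without a core in the window, 1 rose (XAF1), and their median was 0.35. The search asked for exactly 2 bases between the repeats. OAS1 and IFI35, counted as without a core, hold GAAA repeats 1 base apart. From 0.0005 to 0.5 μM, where 0.337% of all genes fell, 8 of 22 genes with a core fell, with a median of -0.91, and none of the 11 without, with a median of -0.41. The remaining 8 genes, OASL, IFIT2 and OAS2 among them, were not in the promoter table, and 3 of them rose. The difference between these groups was not tested.

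Other genes of the interferon pathway moved in part. Of 74 further genes in lists of ligands, receptors and kinases, negative regulators, sensors and other induced genes, 53 were tested. At 0.0005 μM 4 of the 53 rose and none fell, where 1.87% of all genes rose, with a median of 0.13 against -0.01 for all genes. From 0.0005 to 0.5 μM 2 fell (IFIH1 and DDX60), where 0.337% of all genes fell, and by the slope 13 fell, where 2.11% of all genes fell, with none rising in either. Of 21 interferon genes, IFNL1 alone had enough counts to be tested. IFNB1, the first type I interferon made by most cells, had 0 counts in all 12 samples, and a count of 0 allows up to 3 counts, or 0.0354 to 0.0895 CPM depending on the sample.

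IFNL1, an interferon lambda, had 2 and 0 counts in C1, 6 and 3 in C2, 59 and 50 at 0.0005 μM, 31 and 24 at 0.005 μM, 10 and 17 at 0.05 μM, and 14 and 4 at 0.5 μM. Both samples at 0.0005 μM and then those at 0.005 μM stood above all others. IFNL1 passed the filter on low counts through treated samples only, so its calls, which are among the 4 at 0.0005 μM and the 13 in the slope, were favoured by the filter, and its fold changes are not given.

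The receptors and kinases were not called at any dose against C2. IFNAR1, a chain of the type I receptor, lay between 47.5 and 62.8 CPM in all samples, with 0.07 ± 0.13 (SE, edgeR adjusted p = 0.819) at 0.0005 μM. IFNAR2, its other chain, was at 11.1 and 10.1 CPM in C1, 11.2 and 12.8 in C2, 14.6 and 15.4 at 0.0005 μM, 13.8 and 12.7 at 0.005 μM, 9.30 and 10.1 at 0.05 μM, and 10.01 and 9.80 at 0.5 μM. It was highest at 0.0005 μM, and was called in the slope (-0.22 ± 0.04 SE, edgeR adjusted p = 0.0114).

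IFIH1 (MDA5), a sensor of long double-stranded RNA, was at 10.7 and 9.19 CPM in C1, 13.1 and 11.4 in C2, 21.1 and 19.6 at 0.0005 μM, 17.5 and 15.8 at 0.005 μM, 12.8 and 11 at 0.05 μM, and 10.1 and 8.94 at 0.5 μM. Levels stepped down with dose, and IFIH1 rose at 0.0005 μM (0.73 ± 0.15 SE, edgeR adjusted p = 0.0281) and fell from there to 0.5 μM (-1.10 ± 0.16 SE, edgeR adjusted p = 0.01). DDX60, a helicase linked to RIG-I signalling, was at 21.6 and 26.8 CPM in C1, 32.7 and 31.2 in C2, 46.3 and 50.2 at 0.0005 μM, 38.6 and 36.7 at 0.005 μM, 22.3 and 22.2 at 0.05 μM, and 24.8 and 22.9 at 0.5 μM. It rose at the lowest dose (0.59 ± 0.14 SE, edgeR adjusted p = 0.0487), lay under C2 at 0.05 and 0.5 μM, and changed by -1.02 ± 0.14 (SE, edgeR adjusted p = 0.00883) from 0.0005 to 0.5 μM. DDX58 (RIG-I), a sensor of RNA ends, was at 55.4 and 77.1 CPM in C1, 95.4 and 89.0 in C2, 113 and 110.4 at 0.0005 μM, 93.9 and 94.8 at 0.005 μM, 59.8 and 52.5 at 0.05 μM, and 67.9 and 64.4 at 0.5 μM. Its log2 fold change was 0.27 ± 0.16 (SE, edgeR adjusted p = 0.402) at 0.0005 μM and -0.72 ± 0.16 (SE, edgeR adjusted p = 0.0182) at 0.05 μM against C2.

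The slopes of DHX58, the third protein of the RIG-I family, of the guanylate-binding protein GBP1, of APOL6 and of the RNA-binding antiviral protein ZC3HAV1 were -0.28, -0.23, -0.25 and -0.18 per 10-fold dose and were called. IFI16, a DNA sensor named here after its values were seen, followed another course, with 64.0 and 83.2 CPM in C1, 76.8 and 74.9 in C2, 138 and 153 at 0.0005 μM, 119 and 124 at 0.005 μM, 133 and 104 at 0.05 μM, and 126 and 112 at 0.5 μM. All treated samples lay above all untreated samples, and IFI16 was called higher at each dose, with log2 fold changes of 0.94, 0.68, 0.64 and 0.65 from the lowest to the highest.

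**Figure D4:**
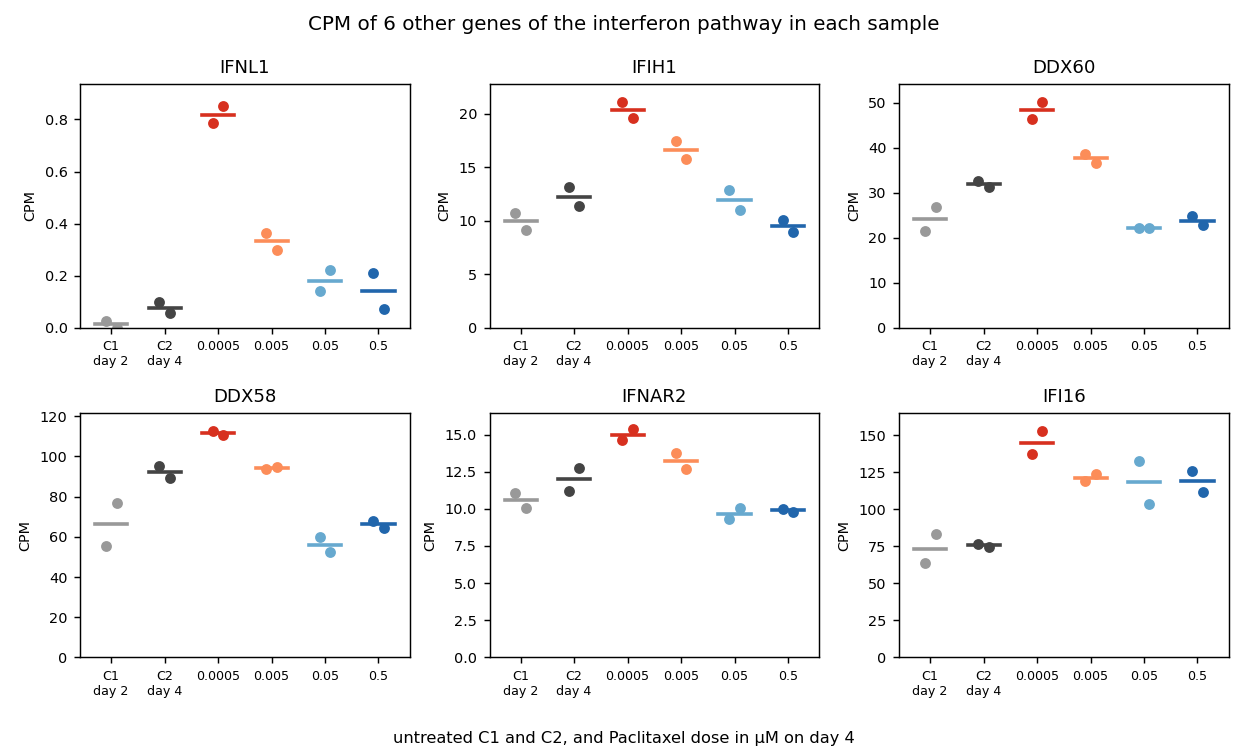
CPM of 6 further genes of the interferon pathway in each sample (points) with the mean of the 2 replicates (lines), for untreated C1 and C2 and the Paclitaxel doses on day 4. IFNL1, IFIH1 and DDX60 have their highest samples at 0.0005 μM and lower levels at 0.05 and 0.5 μM than at 0.005 μM, and IFI16 stays above the untreated samples at every dose.

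Markers of immune cells were low throughout but moved with the drug. The sum of 8 such genes was between 1.10 and 1.62 CPM in the untreated samples, 2.67 to 3.02 CPM at 0.0005 μM, 3.70 to 4.16 at 0.005 μM, 5.01 to 5.66 at 0.05 μM and 4.38 to 4.82 at 0.5 μM. Of the 8 genes, 4 were tested, and 1, 2, 3 and 3 of them were called higher against C2 at the 4 doses in order. These were the integrin gene ITGAM at every dose, the receptor gene CSF1R from 0.005 μM and CD14 from 0.05 μM. ITGAM had 1 and 5 counts in C2, 54 and 46 at 0.0005 μM, 125 and 103 at 0.005 μM, 147 and 179 at 0.05 μM, and 88 and 82 at 0.5 μM. CSF1R was at 0.606 and 0.478 CPM in C2 and 1.47 and 1.87 CPM at 0.05 μM, and CD14 at 0.508 and 0.515 CPM in C2 and 1.11 and 1.28 CPM at 0.05 μM. CD3E, which defines T cells, had between 0 and 2 counts in every sample.

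The sum of 8 fibroblast genes was 10.1 to 18.6 CPM in C1, 13.3 to 16.98 in C2, 14.6 to 18.3 at 0.0005 μM, 17.2 to 17.8 at 0.005 μM, 19.5 to 22.0 at 0.05 μM and 14.9 to 15.7 at 0.5 μM. Most of it came from COL1A1 and PDGFRB, which were not called. Of the 6 tested, 2 were called higher at each dose, the receptor gene PDGFRA and the protease gene FAP, and the median log2 fold change at 0.0005 μM was 0.77. PDGFRA had 7 and 7 counts in C2, 47 and 44 at 0.0005 μM, 51 and 71 at 0.005 μM, 154 and 153 at 0.05 μM, and 66 and 60 at 0.5 μM. FAP had 0 counts in both C2 samples and 5 to 14 in the treated samples. ITGAM, PDGFRA and FAP passed the filter on low counts through treated samples, with at most 1 untreated sample above its cutoff, so their calls were favoured by the filter. The part of the immune and fibroblast markers in the results was not tested.

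Annotation limits some of the levels. Exons of 18 of the 42 genes share bases with another annotated gene, in none for more than 50% of the exon bases. Besides XAF1 and IRF9, the largest shares were those of IFITM1 (31.6%), IFI6 (23.1%) and IRF1 (22.9%). The strand setting of the counting is not given in the sources used here, so reads of a gene and of an antisense partner cannot be told apart.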

How the data were processed

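RNA-seq counts of 12 samples were used, 2 biological replicates for each of 6 conditions, grouped by their labels. The deposited values are integer read counts per gene, neither normalized nor pooled. To make them, the authors removed adapters and low quality bases with Trimmomatic 0.39, checked quality with FastQC 0.11.9, aligned paired-end reads to GRCh37 with STAR 2.7.5, kept unique alignments and counted reads in exons with Rsubread. The gene annotation and the strand setting of that counting are not given in the sources used here. Keeping unique alignments lowers the counts of near-identical genes such as the IFITM family.

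Symbols were looked up by gene identifier, and 55665 of 63568 identifiers had one. The unmatched ones held 8.98% to 10.9% of the counts of a sample, and every column was assigned to a sample. Gene coordinates and exon lengths were read from GENCODE on GRCh37. Analyses used R 4.3.3 and edgeR 4.0.16, with TMM scaling, filterByExpr by condition, robust quasi-likelihood fits, two-sided tests and Benjamini-Hochberg adjustment over all genes tested, called at an adjusted p under 0.05. All 12 samples entered 1 fit of 6 conditions with 6 residual degrees of freedom, and the dose slope was fitted on log10 dose in the 8 treated samples. A prior count of 2 was used for log2 CPM in the offsets and the comparison of replicates, and not for the log2 fold changes. Each SE was obtained from the log2 fold change and the F statistic, as the ratio of the size of the change to the root of F. The common biological coefficient of variation was 15.6%. The procedure was tested on simulated data. Alternatives were DESeq2 1.42.0, RLE (relative log expression) and upper quartile scaling, the replicate number as a block, only the groups compared, a minimum mean count of 10 or no filter, fits that were not robust, leaving out each sample, and, added after the data were seen, day 4 samples alone and offsets for GC content and gene length.

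The members and the gene lists were chosen with earlier results of these data known. Values in every sample are given for members called in the fall from 0.0005 to 0.5 μM, in the slope or in any dose against C2, and for STAT2, IRF9, IRF1, IRF7 and ISG15. Other members are given by counts and ranges. At most 12 genes of the pathway lists are named, those called in the fall or the slope with the lowest slope p-values, and IFNAR1, IFNAR2, IFNB1 and IFNL1. A gene that this rule also names is not reported here. Promoters were printed for the 4 members in the RefSeq table with an ISRE core and the largest called fall, and for 1 without a core.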

Additional observations from a re-analysis of the deposited data

How the results depend on the processing

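All values here are counts of the 41 tested genes called, or of all 42 with DESeq2 and with no filter, unless stated. In the order 0.0005, 0.005, 0.05 and 0.5 μM against C2 and 0.5 against 0.0005 μM, they were 15, 8, 1, 2 and 12 as reported. They were 27, 17, 3, 2 and 27 with only the groups compared, 26, 17, 7, 5 and 26 with day 4 samples only, and 25, 14, 2, 1 and 16 with offsets for GC content and gene length, the last pair chosen after seeing the data. DESeq2 called 22, 10, 2, 2 and 17 genes of the set (2.19%, 2.45%, 4.99%, 4.25% and 1.03% of all genes). Upper quartile scaling gave 18, 8, 1, 1 and 8 (2.62%, 3.27%, 7.49%, 6.1% and 0.257% of all genes). The steps from 0.0005 to 0.005 μM and from 0.005 to 0.05 μM were 0 as reported, for all genes too. With no filter they gave 2 and 10 (1.34% and 0.296% of all genes). With only the groups compared they gave 18 (16 lower, 2 higher) and 9. In that fit 9.13% (2.46% lower, 6.67% higher) and 1.42% of all genes were called. Day 4 samples only gave 0 and 12 (0.0239% and 0.422% of all genes). Both offsets and DESeq2 gave 0 and 4, where 0.0853% and 0.0613% of all genes were called in the middle step. C2 against C1 gave 1 with no filter (0.797% of all genes) and 2 with offsets (0.853% of all genes). Leaving out 1 sample gave 6 to 26, 1 to 17, 0 to 7, 0 to 6 and 1 to 26 for the 5 comparisons above, 12 to 26 for the slope (20 as reported), 0 to 1, 0 to 13 and 0 to 0 for the steps, and 0 to 8 for C2 against C1. A condition left with 1 sample was assumed to vary like the others. Genes peaking at 0.0005 μM numbered 35 to 38. The cause of these differences was not tested.

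The median log2 fold change changed sign at 0.5 μM against C2 under upper quartile scaling (0.0361), at 0.5 against 0.05 μM without 0.05 μM replicate 2 (-0.0498, against 0.1768 without replicate 1), and for C2 against C1 without C1 replicate 1 (-0.0238, against 0.28 without replicate 2). Upper quartile scaling moved the median of all genes by 0.12, 0.10 and 0.11 at 0.005, 0.05 and 0.5 μM against C2, and members above 0 went from 35 to 38, 15 to 19 and 17 to 23. With the replicate number as a block the 5 counts were 16, 8, 1, 2 and 12, the slope 17, and the steps and C2 against C1 0. Of all genes, 2.67%, 3.55%, 8.64%, 7.15% and 0.491% were called in the 5 comparisons, 1.68% in the slope and 0.364% in C2 against C1. The replicate numbers do not pair the samples, since differences between replicates correlated from -0.60 to 0.70 between conditions over 11193 genes. Of the single-gene values under alternatives, 985 kept direction and call and 171 kept direction only. Some genes under 5 CPM rest on few counts, such as XAF1 with 6 and 22 in C2, while MX1 had 238 and 228 there.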
